A study of Homo sapiens with 17 samples.

Results

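The regions described here are the FOSL2 sites of A549, an established line from a human lung carcinoma, set against 2 repressive histone marks. A region was taken where FOSL2 ChIP-seq peaks of both uninduced libraries overlapped by at least 1 bp on chromosomes 1 to 22 and X, which gave 10190 regions of the 50138 called in either library. The 2 FOSL2 lists held 45586 and 14842 peaks. A mark was taken at the bases covered in both libraries of H3K9me3 (305084 and 201740 peaks) or of H3K27me3 (190938 and 228427 peaks), which came to 102 Mb (3.36% of the 3030 Mb of these chromosomes) and 148 Mb (4.90%). Bases in both marks made up 10.2 Mb (0.337%).

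All FOSL2 libraries came from A549 cells that carry a piggyBac insertion of A-Fos, which blocks AP-1 as a dominant negative once expressed. The libraries used for the regions had no treatment, so A-Fos was not induced; a further pair had 1 µg/mL doxycycline for 48 h. The marks came from untreated WT A549 cells without the A-Fos construct. FOSL2 and the marks were therefore never measured in the same line, and a difference between the lines cannot be told apart from a difference between a bound and a marked site. Whether the A-Fos line is 1 clone is not given in the sources used here. FOXA1 libraries of both lines, 2 each, served for comparison, with 6015 regions in uninduced A-Fos cells and 35739 in WT cells. The labels call the libraries biological replicates. Depth is unknown, since the peak lists give no reads.

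FOSL2 (also called Fra2) is a member of the FOS family of transcription factors. It pairs with a JUN protein to form AP-1, which binds the DNA sequence TGANTCA at promoters and distal enhancers of epithelial cells. H3K9me3 marks constitutive heterochromatin, including clusters of zinc finger genes and repeats, and is read by HP1 proteins. H3K27me3 is laid down by the Polycomb complex PRC2 over silent developmental genes. The comparisons ask how often the regions lay in a mark, set against the same regions moved along the chromosome, how strongly those in a mark were bound, and how far from a mark the others lay.

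Promoter windows show what the FOSL2 sites inside them look like in sequence. The sequences of sites outside these windows were not read. Most regions were far from genes' ends, with 9891 over 1 kb from a gene end and 299 within 1 kb. The motif shares given here therefore hold for promoter windows, not for FOSL2 sites in general. Of 34961 RefSeq windows of 300 bp (250 bp before to 50 bp after a gene start, GRCh38.p14), 310 overlapped a FOSL2 region, and TGANTCA, searched on both strands, stood in 214 of them (69.0%, 95% Clopper-Pearson interval 63.6 to 74.1%). The motif stood in 7.68% of all windows and in 7.13% of those without a FOSL2 region. It was found in 4 of the 5 windows whose FOSL2 region touched H3K9me3, in 1 of the 2 whose region touched H3K27me3, and in 209 of 303 (69.0%) whose region lay in no mark. Windows covered by a mark held the motif about as often as windows in general, in 8.20% of 915 windows for H3K9me3 and in 6.83% of 3206 for H3K27me3. A match is a description of the letters, not a proven site. The windows that follow set FOSL2 regions in H3K9me3 (TENM4-AS1, LOC105369880) and in H3K27me3 (S100A12) beside 2 strongly enriched unmarked ones (MBNL2, SPRED2), with TGANTCA matches in capitals, 5′ to 3′ on the strand of the gene.
TENM4-AS1: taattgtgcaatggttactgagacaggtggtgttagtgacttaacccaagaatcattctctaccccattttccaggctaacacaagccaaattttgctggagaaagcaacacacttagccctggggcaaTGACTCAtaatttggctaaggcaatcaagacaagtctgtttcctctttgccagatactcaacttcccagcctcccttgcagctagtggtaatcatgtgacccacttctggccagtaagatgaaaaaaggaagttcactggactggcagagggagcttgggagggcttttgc
LOC105369880: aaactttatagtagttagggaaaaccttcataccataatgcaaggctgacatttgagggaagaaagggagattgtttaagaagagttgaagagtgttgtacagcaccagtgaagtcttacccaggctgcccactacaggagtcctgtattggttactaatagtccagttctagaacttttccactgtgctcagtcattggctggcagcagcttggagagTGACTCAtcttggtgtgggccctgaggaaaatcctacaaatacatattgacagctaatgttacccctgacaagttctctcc
S100A12: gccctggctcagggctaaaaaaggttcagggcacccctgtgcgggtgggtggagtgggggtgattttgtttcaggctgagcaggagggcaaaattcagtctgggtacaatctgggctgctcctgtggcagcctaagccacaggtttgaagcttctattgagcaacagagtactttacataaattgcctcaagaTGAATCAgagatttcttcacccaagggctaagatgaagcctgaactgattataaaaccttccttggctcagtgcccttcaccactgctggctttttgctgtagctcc
MBNL2: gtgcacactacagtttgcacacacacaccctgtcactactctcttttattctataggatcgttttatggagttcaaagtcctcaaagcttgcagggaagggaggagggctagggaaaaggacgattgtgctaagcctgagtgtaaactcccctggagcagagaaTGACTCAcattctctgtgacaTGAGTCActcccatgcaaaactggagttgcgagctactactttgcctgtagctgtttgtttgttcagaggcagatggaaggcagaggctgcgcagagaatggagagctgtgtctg
SPRED2: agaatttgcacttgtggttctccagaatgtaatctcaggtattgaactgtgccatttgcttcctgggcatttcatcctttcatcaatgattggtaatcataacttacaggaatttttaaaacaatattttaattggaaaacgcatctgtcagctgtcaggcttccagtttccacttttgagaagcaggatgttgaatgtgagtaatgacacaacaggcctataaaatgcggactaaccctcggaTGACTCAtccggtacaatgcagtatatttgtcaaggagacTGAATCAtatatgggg

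The TENM4-AS1 window (chr11:79093023-79093322, plus strand) held 1 match and a FOSL2 region wholly covered by H3K9me3, with fold enrichments of 16.7 and 3.94 over background in the 2 FOSL2 libraries. The LOC105369880 window (chr12:87428902-87429201, plus strand) held 1 match, and H3K9me3 covered 85.5% of its region, with fold enrichments of 11.4 and 5.06. The S100A12 window (chr1:153375572-153375871, minus strand) belongs to a calcium-binding protein gene of myeloid cells, held 1 match, and had 19.5% of its region in H3K27me3, with fold enrichments of 17.2 and 2.46. The unmarked window of MBNL2 (chr13:97141584-97141883, plus strand), a splicing regulator, held 2 matches and reached fold enrichments of 87.6 and 27.6. That of SPRED2 (chr2:65366729-65367028, minus strand), an inhibitor of RAS signalling, held 2 matches as well, with 88.4 and 22.8. Every window shown held a match, so these examples do not show how often marked windows hold the letters. The IL12B window, whose FOSL2 region touched H3K27me3 (26.9% covered), held 0 matches, with fold enrichments of 20.2 and 7.24. The LOC124904675 window, with a region wholly covered by H3K9me3, held 0 as well (2.97 and 3.45). The unmarked windows shown were picked from those of highest enrichment, so their values are no comparison with the marked ones.

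FOSL2 regions called in both libraries were depleted from both marks. H3K9me3 touched 230 of the 10190 regions (2.26%, 95% interval 1.98 to 2.56%), against 6.96% ± 0.306 (SD over shifts) after 1000 circular shifts of the regions along each chromosome, a ratio of 0.325. H3K27me3 touched 202 regions (1.98%, 1.72 to 2.27%) against 8.82% ± 0.404, a ratio of 0.225. Only 22 regions (0.216%) touched both marks, against 0.984% ± 0.111, and 9780 (96.0%) touched neither. For all 3 overlaps the two-sided permutation p was 0.002, the smallest that 1000 shifts can give (0.0025 after Benjamini-Hochberg adjustment over 20 statistics). Intervals cover counting error over regions alone, and the shifts measure placement along chromosomes, not the spread between cultures.

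**Figure D1:**
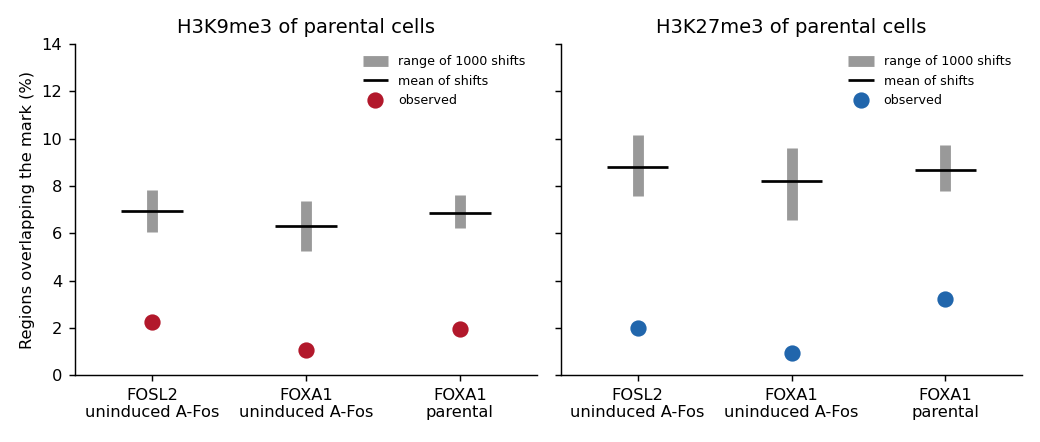
Percent of regions overlapping H3K9me3 (left) or H3K27me3 (right) of parental (WT) cells, for FOSL2 and FOXA1 regions called in both libraries of a group. Points are observed shares, grey bars the range of 1000 circular shifts and black lines their mean; every point sits under its grey bar, and FOSL2 is at 2.26% and 1.98%.

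The depletion was smaller in all peaks of FOSL2 replicate 1 and was not found in all peaks of FOSL2 replicate 2. Replicate 1 alone gave ratios of 0.679 for H3K9me3 and 0.744 for H3K27me3 (permutation p = 0.002 for each). All peaks of FOSL2 replicate 2 alone gave 1.23 (7.63% of 14842 peaks, permutation p = 0.002) and 1.04 (8.46%, p = 0.418), so with that list the H3K9me3 overlap was above the shifted level. For peaks that touched both marks, at the same bases or not, replicate 2 alone gave 1.61, against 0.732 for replicate 1 alone. The 4555 regions called in replicate 2 only lay in H3K9me3 in 20.8% and in H3K27me3 in 23.7% of cases. The 35393 regions called in replicate 1 only did so in 4.61% and 7.001%. Regions found once were thus in marks more often than regions found in both libraries, and the H3K9me3 and H3K27me3 shares of replicate 2 came largely from them.

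Within each library the share in a mark fell with FOSL2 enrichment. In replicate 2 it went from 17.6% (H3K9me3) and 20.6% (H3K27me3) in the weakest 10% of peaks to 0.606% and 0.135% in the strongest, where every peak was also called in replicate 1. In replicate 1 it went from 12.5% and 17.2% in the weakest 10%, of which 2.79% was also called in replicate 2, to 1.47% and 0.505% in the strongest, of which 94.1% was. The strongest 10% of either library was therefore low in both marks.

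**Figure D2:**
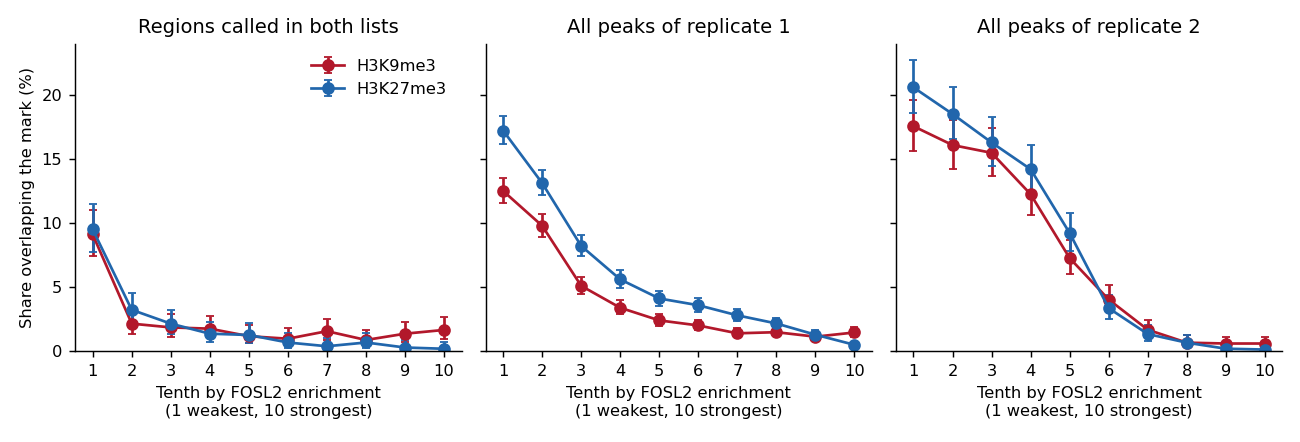
Percent of FOSL2 regions or peaks overlapping H3K9me3 (red) or H3K27me3 (blue), in steps of 10% by FOSL2 fold enrichment from weakest to strongest, with 95% Clopper-Pearson intervals. The left panel has the regions called in both libraries, the other panels all peaks of each library; shares fall from 17.6% and 20.6% in the weakest 10% of replicate 2 to under 1% in its strongest.

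Among the regions called in both libraries, the weakest 10% by mean percentile stood apart. It held 93 of the 230 regions in H3K9me3 (40.4%) and 97 of the 202 in H3K27me3 (48.0%). Its shares, 9.13% and 9.52% of 1019 regions, were close to those of the same regions shifted (8.23% ± 0.908, permutation p = 0.358, and 10.05% ± 1.06, p = 0.661). The 10% of regions next above it was already depleted, at 2.16% and 3.24% (ratios 0.306 and 0.362, permutation p = 0.002). In the upper 50% the ratio was 0.192 for H3K9me3 (66 of 5095 regions) and 0.0523 for H3K27me3 (23 of 5095). In the strongest 10% 17 regions lay in H3K9me3 (1.67%, ratio 0.229) and 2 in H3K27me3 (0.196%, ratio 0.0212). The H3K27me3 share thus went on falling to the strongest sites, while the H3K9me3 share stayed between 0.883% and 2.16% above the weakest 10%. Adjusted over these 10 tests, the p-values at the smallest value became 0.0025. Strength here is the same enrichment that the next comparison ranks, so the 2 results are not independent.

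Regions in a mark ranked lower in both FOSL2 libraries. The median percentile of fold enrichment was 72.6 inside H3K9me3 and 87.9 outside it in replicate 1, and 48.4 and 65.8 in replicate 2, differences of -15.2 and -17.4 points. For H3K27me3 the medians were 61.8 and 87.9 in replicate 1 and 39.3 and 65.9 in replicate 2, differences of -26.1 and -26.6. Without the weakest 10% of regions the differences were -1.21 and -4.91 for H3K9me3 (permutation p = 0.022 and 0.004) and -9.36 and -17.1 for H3K27me3 (p = 0.002). With all peaks of 1 FOSL2 list they were -33.7 (replicate 1) and -30.2 (replicate 2) for H3K9me3. Without H3K9me3 replicate 1 the replicate 1 difference was -8.09. The percentiles are within each whole list, so regions found in both lists rank high in the longer one. The shifted regions gave differences of -0.25 to -1.02 on average (permutation p = 0.002 for each). The median fold enrichment was 11.1 inside and 19.6 outside H3K9me3 in replicate 1 and 4.38 and 5.62 in replicate 2; for H3K27me3 it was 8.23 and 19.7, and 3.98 and 5.65. With the upper 50% of every list, FOSL2 and marks alike, the H3K9me3 difference was -0.0066 (permutation p = 0.815) and -0.527 (p = 0.635), while H3K27me3 kept -6.77 and -10.3 (p = 0.002). In that selection the lower rank was thus seen in H3K27me3 and was not detectable in H3K9me3.

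How far the depletion reached differed between the marks. At the FOSL2 summit (the mean of the positions in the 2 lists) H3K9me3 covered 1.25% of summits, a ratio of 0.329 to the shifted level. This rose to 0.607 at 1 kb, 0.933 at 2 kb (permutation p = 0.168) and 1.01 at 5 kb (p = 0.723), and was 1.01 at 50 kb (p = 0.917). H3K27me3 covered 1.32% of summits, a ratio of 0.234, and came back slowly, with 0.375 at 1 kb, 0.449 at 2 kb, 0.559 at 5 kb, 0.662 at 10 kb, 0.749 at 20 kb and 0.861 at 50 kb (permutation p = 0.002 to 20 kb and 0.004 at 50 kb; 0.0032 and 0.0058 adjusted over 16 tests). The H3K9me3 dip was thus no wider than a couple of kilobases, and H3K27me3 was below its shifted level across the whole 100 kb window. With 1 FOSL2 list alone the H3K27me3 ratio at 5 kb was 0.931 (replicate 2, permutation p = 0.128) and 0.943 (replicate 1, p = 0.0959), so the wide deficit was seen in the regions called in both.

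**Figure D3:**
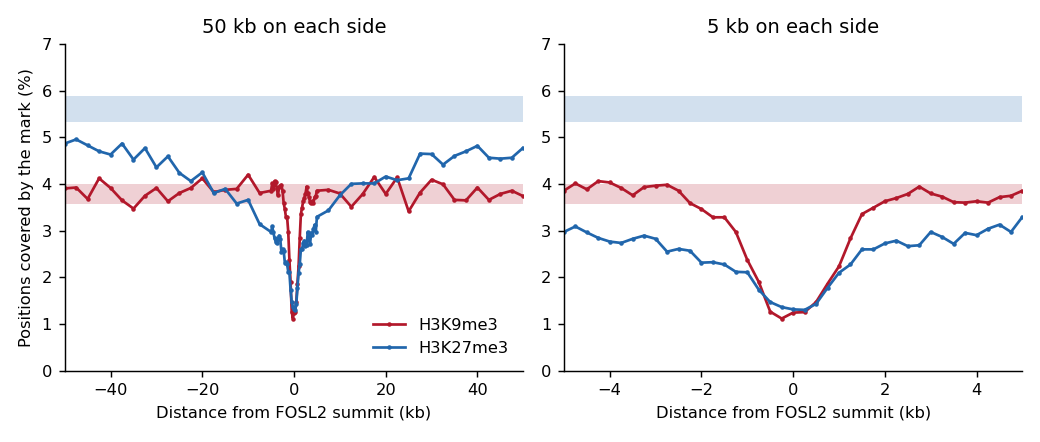
Percent of positions covered by H3K9me3 (red) or H3K27me3 (blue) against distance from the FOSL2 summit in kb, over 50 kb (left) and 5 kb (right) on each side, for 10190 regions. Shaded bands are the mean ± SD after circular shifts; H3K9me3 returns to its band by about 2 kb, and H3K27me3 is still under its band at 50 kb.

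The strongest 10% showed the same pair of shapes. H3K9me3 covered 0.196% of its 1019 summits (ratio 0.0558) and 4.71% of positions 5 kb away (ratio 1.32, permutation p = 0.014, not adjusted). H3K27me3 covered 0.0981% of the summits (ratio 0.0179), 1.37% at 5 kb (0.251) and 3.43% at 50 kb (0.629). FOXA1 regions of the same uninduced line gave 0.115, 1.16 and 1.01 for H3K9me3 at 0, 5 and 50 kb, and 0.107, 0.452 and 0.575 for H3K27me3. The narrow H3K9me3 dip and the wide H3K27me3 deficit were therefore found at both factors.

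Summits outside H3K9me3 lay nearer to it than shifted ones. Their median distance to the nearest H3K9me3 edge was 11.8 kb against 14.2 kb ± 0.526 (ratio 0.830, permutation p = 0.002). Only 4.98% lay within 1 kb against 8.57% shifted, but 29.2% within 5 kb against 27.6% (permutation p = 0.018, adjusted 0.02), 45.7% within 10 kb against 41.8%, and 86.8% within 50 kb against 78.3%. With H3K9me3 replicate 1 alone as the mark, the ratio of the median distances was 1.04 (permutation p = 0.258), so that nearness rested on H3K9me3 replicate 2. For H3K27me3 the median was 58.4 kb against 62.6 kb ± 3.97 (ratio 0.933, permutation p = 0.324). Fewer summits than shifted lay within 1 kb (3.00% against 7.93%), 5 kb (11.8% against 18.7%) and 10 kb (19.2% against 25.2%), and about as many within 50 kb (46.6% against 46.2%, permutation p = 0.683). Both medians depended on where shifted regions could land. With shifts held to between 50 kb and 1 Mb the ratio was 0.927 for H3K9me3 and 1.41 for H3K27me3 (permutation p = 0.002 for each). With stretches without any peak removed it was 0.938 for H3K9me3 (permutation p = 0.034) and 1.13 for H3K27me3 (p = 0.01). The H3K9me3 nearness was thus smaller with these shifts, and the H3K27me3 median was above its shifted value.

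**Figure D4:**
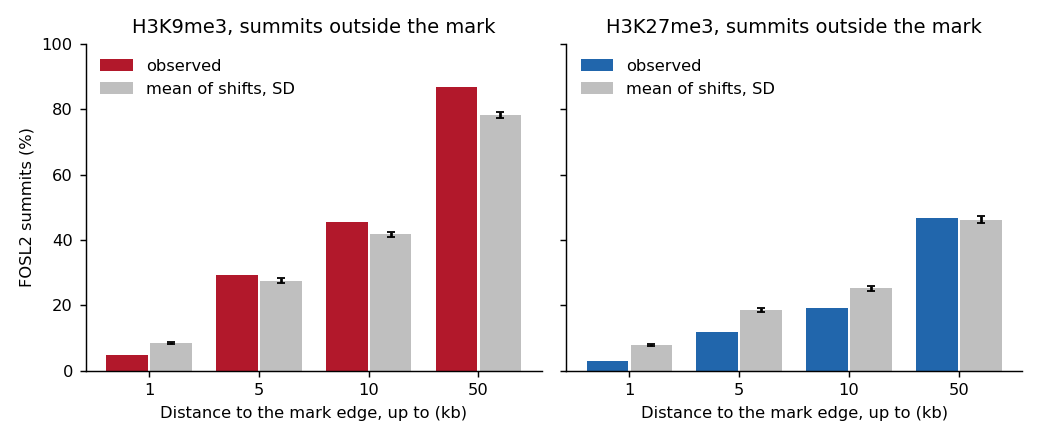
Percent of FOSL2 summits outside H3K9me3 (left) or outside H3K27me3 (right) that lie within 1, 5, 10 or 50 kb of the mark edge. Coloured bars are observed and grey bars the mean of 1000 shifts with its SD; at 1 kb both marks are below the shifted level, and at 50 kb H3K9me3 is above it, at 86.8% against 78.3%.

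Some FOSL2 summits outside a mark sat in a gap of a marked stretch, and their regions could still touch the mark. A summit outside H3K9me3 with the mark within 5 kb on each side occurred in 566 regions (5.55%, against 6.39% shifted, permutation p = 0.012, adjusted 0.014), and for H3K27me3 in 431 regions (4.23% against 7.47%, p = 0.002). The strongest such sites were among the most enriched in the data. A region at chr14:44316506-44317511 (hg38), 187 kb from FSCB, was the top FOSL2 peak of replicate 1 with a fold enrichment of 148, and 40.01 in replicate 2. H3K9me3 lay 679 bp to the left and 1530 bp to the right of its mean summit. All distances to a mark in this paragraph are from the mean summit, so the edges of a region lie nearer to the mark. A region at chr11:56932610-56933347, 55.8 kb from the olfactory receptor gene OR5AK2, had fold enrichments of 125 and 40.4 with H3K9me3 2128 and 1351 bp away. In H3K27me3 gaps, a region inside SLC35F4 (chr14:57833092-57833796) had 54.1 and 23.3, with the mark 2061 and 4102 bp away. Another, 91.6 kb from the annexin gene ANXA2 (chr15:60255299-60256062), had 52.1 and 18.9, with the mark 470 and 1561 bp away. H3K27me3 replicate 2 did call a peak there, at 8.16 fold, and replicate 1 did not. The ANXA2 and OR5AK2 regions were also called by FOXA1 in both lines. Further strong sites in gaps lay inside KCNH1 (108 and 33.4) and TOX (98.6 and 28.9) for H3K9me3, of which KCNH1 had an H3K9me3 peak in replicate 1 only (3.94 fold). Others lay inside FAM110B (88.5 and 26.2) and 138 kb from ZBTB10 (63.3 and 15.9) for H3K27me3.

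The mark covered some of the touched regions in part and others whole. H3K9me3 covered at least 50% of the region in 130 of 230 cases (56.5%), the whole region in 51 (22.2%) and both FOSL2 summits in 119 (51.7%). H3K27me3 covered at least 50% in 141 of 202 (69.8%), the whole region in 84 (41.6%) and both summits in 131 (64.9%). A summit in H3K9me3 lay a median of 220 bp from the edge of a stretch of 1048 bp, against 206 and 981 bp for shifted summits that landed in the mark; for H3K27me3 it was 335 bp in stretches of 1572 bp, against 318 and 1539 bp. Within a mark, FOSL2 summits were thus placed about as shifted ones were. The mark peaks that held a FOSL2 region lay, in the median, above the middle of their lists, though weak mark calls were among them. For H3K9me3, 348 and 433 peaks held one, at a median percentile of 68.3 and 65.9 of the mark's own fold enrichment, and for H3K27me3, 250 and 346 peaks at 61.6 and 74.7. They were also wider (a median of 729.5 and 923 bp against 409 and 565 bp over all H3K9me3 peaks, and 1202 and 1539 bp against 595 and 637 bp for H3K27me3), and a wide peak has more room for an overlap.

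Marked FOSL2 regions lay inside genes less often than unmarked ones, given as shares with counting intervals. A protein-coding gene contained 70 of the 230 in H3K9me3 (30.4%, 24.6 to 36.8%) and 62 of the 202 in H3K27me3 (30.7%, 24.4 to 37.6%), against 48.8% (47.8 to 49.8%) of the 9780 unmarked regions. The median distance to the nearest gene end was 69.7 kb in H3K9me3 and 52.2 kb in H3K27me3, against 36.0 and 36.2 kb outside each mark. Within 1 kb of a gene end lay 2 of 230 in H3K9me3 (0.87%, 0.105 to 3.11%) and 7 of 202 in H3K27me3 (3.47%, 1.40 to 7.01%). Among unmarked regions it was 290 (2.97%, 2.64 to 3.32%), and the intervals of both marks overlapped this one.

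The strongest regions with both summits in H3K9me3 lay inside genes or up to 206 kb from the nearest one. The first lay inside the RNF103-CHMP3 readthrough locus (chr2:86694909-86695606, hg38), with FOSL2 fold enrichments of 78.6 and 18.9 and mark enrichments of 3.66 and 4.39. The next lay 206 kb from SEMA5A, an axon guidance semaphorin (chr5:8828985-8829769), with 43.3 and 11.8. Its H3K9me3 calls were at percentiles 8.82 and 78.4 of the 2 mark lists. A region 14.04 kb from the myelin protein gene PMP22 (chr17:15278914-15279620) had 44.1 and 10.4, was also called by FOXA1 in both lines, and was also called in 1 doxycycline list. H3K9me3 covered 40.6% of it, with mark calls at percentiles 40.3 and 38.2. Regions inside MACROD2 (29.9 and 9.36), 23.1 kb from FKBP1A, the FK506-binding protein (49.1 and 8.10), and inside ST18 (17.4 and 12.2) followed. Those 55.8 kb from NOL10 (51.1 and 6.98) and inside KATNBL1 (20.9 and 8.47) came next. At KATNBL1 (chr15:34154773-34155229) the mark was strong, at the 99.6th and 99.98th percentile of the 2 H3K9me3 lists, in a stretch of 3587 bp that covered the whole region. A strong FOSL2 call and a strong H3K9me3 call were thus made at the same bases there.

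The strongest regions with both summits in H3K27me3 lay inside genes or up to 211 kb from the nearest one. A region 74.5 kb from TLE3, a Groucho corepressor (chr15:69972968-69973554), had FOSL2 fold enrichments of 31.9 and 12.2 and lay 4752 bp deep in a marked stretch of 10385 bp. One inside the locus of NPAS4, a neuronal activity factor (chr11:66418009-66418920), had 34.6 and 6.65 in a stretch of 8846 bp whose peaks were at the 99.9th and 99.99th percentile of the mark lists. One 22.2 kb from BMP2, a secreted morphogen (chr20:6802068-6802674), had 21.9 and 8.82, with H3K27me3 at 3.70 and 2.75 fold (percentiles 53.3 and 20.4). It was still called in 1 doxycycline list. Those inside RGS6, a regulator of G protein signalling (30.6 and 6.96), and 211 kb from DAAM1, a formin gene (17.8 and 5.95), lay in stretches of 296 and 393 bp. On chromosome 8 such regions lay 71.0 kb from OPRK1, an opioid receptor gene (30.7 and 9.0), 58.4 kb from MSRA (28.2 and 7.92) and 9.85 kb from TNKS, a tankyrase gene (23.2 and 6.20). The MSRA region lay in a stretch of 269 bp, with mark calls at percentiles 34.2 and 7.10. Of the 8 regions, that of MSRA overlapped a FOXA1 region, in WT cells.

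FOSL2 was weak in the regions that touched both marks. Of the 22 regions in both marks, 18 (81.8%) were in the weakest 10% and 0 in the upper 50%, and 14 had both summits in both marks. The strongest lay inside LZTS1 (11.1 and 3.97) and 10.6 kb from EBF2 (8.35 and 3.60). Others lay inside RYR3, a ryanodine receptor (chr15:33649868-33650368; fold enrichments 4.08 and 5.06), and 68.2 kb from GTSF1L (chr20:43795009-43795465; 3.18 and 3.62). None of the 22 overlapped a FOXA1 region of WT cells (95% interval 0 to 15.4%), against 48.4% of the unmarked regions, 26.9% of those in H3K9me3 only and 14.4% of those in H3K27me3 only.

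Overlap with FOXA1, a pioneer factor of lung epithelium, went with fewer marks among weak FOSL2 regions. Of 4818 FOSL2 regions that overlapped a FOXA1 region of WT cells, 56 (1.16%, 0.879 to 1.51%) lay in H3K9me3 and 26 (0.540%, 0.353 to 0.790%) in H3K27me3. Of the 5372 without one, 174 (3.24%, 2.78 to 3.75%) and 176 (3.28%, 2.82 to 3.79%) did. With FOXA1 of the uninduced A-Fos line, the shares were 1.31% of 1685 regions against 2.45% of 8505 for H3K9me3, and 0.237% against 2.33% for H3K27me3. In the weakest 10%, 3 of 297 regions with WT FOXA1 lay in H3K9me3 (1.01%, 0.209 to 2.92%) and 90 of 722 without it (12.5%, 10.1 to 15.1%). The H3K27me3 counts there were 3 and 94 (1.01% and 13.0%). In the upper 50% the H3K9me3 shares were 1.29% with and 1.303% without, and the H3K27me3 shares 0.331% and 0.588%, with overlapping intervals. The gap between regions with and without FOXA1 thus lay in the lower 50% of FOSL2 enrichment. These are shares over regions of the same libraries, and no test over cultures was made.

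Compared library by library, FOSL2 peaks were in marks more often than FOXA1 peaks of the same uninduced line, and the order depended on list length. The H3K9me3 shares were 4.08% and 7.63% for FOSL2 and 3.14% and 2.08% for FOXA1, a difference of 3.25 points, and the H3K27me3 shares 5.87% and 8.46% against 2.82% and 2.00%, a difference of 4.76. The FOSL2 and FOXA1 libraries did not overlap in either mark. The exact two-sided permutation test gave p = 0.333, the smallest that 2 libraries against 2 allow. With the 7633 strongest peaks of every library, the differences were -0.419 and -0.766 points (exact permutation p = 1), with FOSL2 at 1.31% and 1.64% and FOXA1 at 3.14% and 0.642% for H3K9me3, and FOSL2 at 0.773% and 1.26% and FOXA1 at 2.82% and 0.747% for H3K27me3. A difference between the factors was not detectable with these libraries.

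Regions in marks were called with doxycycline more often than others. Of all 10190 regions, 160 (1.57%) were also called in at least 1 of the 2 doxycycline libraries. In H3K9me3 it was 24 of 230 (10.4%, 6.80 to 15.1%) against 136 of 9960 outside it (1.37%), and in H3K27me3 19 of 202 (9.41%, 5.76 to 14.3%) against 141 of 9988 (1.41%). Of the regions in either mark, the weakest 10% had 27 of 172 called with doxycycline (15.7%, 10.6 to 22.01%) and its unmarked regions 26 of 847 (3.07%, 2.01 to 4.47%). In the rest of the lower 50% it was 6 of 149 (4.03%, 1.49 to 8.56%) against 28 of 3927 (0.713%, 0.474 to 1.03%). In the upper 50% it was 3 of 89 (3.37%, 0.701 to 9.54%) against 70 of 5006 (1.40%), with overlapping intervals. The doxycycline lists as a whole were short and weak, with 1854 and 5274 peaks and a highest fold enrichment of 6.57 and 6.77, and 19.3% and 16.8% of their peaks lay in H3K9me3 and 20.8% and 23.2% in H3K27me3. Those shares are near the ones of the weakest peaks of the uninduced replicate 2 (17.6% and 20.6%). What gives these peaks was not tested.

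**Figure D5:**
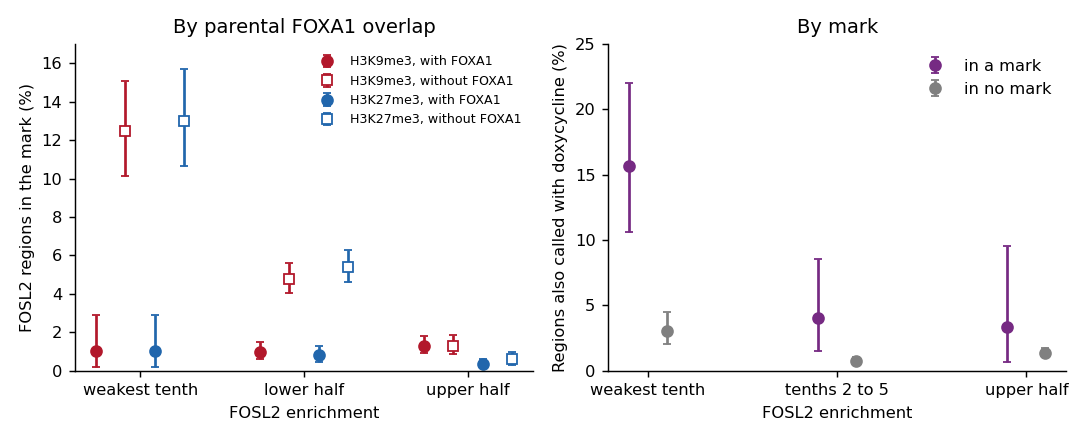
Left, percent of FOSL2 regions in H3K9me3 (red) or H3K27me3 (blue) with (filled circles) and without (open squares) a FOXA1 region of parental (WT) cells, by FOSL2 enrichment; the lower 50% includes the weakest 10%. Right, percent of regions also called in a doxycycline library, in either mark (purple) or in none (grey); bars are 95% Clopper-Pearson intervals, and in the weakest 10% the groups do not overlap in either panel.

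Chromosome 19, which carries the largest clusters of zinc finger genes, held the most regions in H3K9me3. There 36 of 229 FOSL2 regions were in that mark (15.7%), which covered 22.4% of the chromosome, against 30.1% ± 4.88 shifted (ratio 0.523, permutation p = 0.002). In H3K27me3 it was 17 (7.42%, ratio 0.514, permutation p = 0.032). The nearest gene was a ZNF gene for 11 of the 36 (30.6%, 16.3 to 48.1%) and for 5 of the 193 regions there outside H3K9me3 (2.59%, 0.846 to 5.94%). On chromosomes 13 and X, with 177 and 215 regions, none lay in either mark, which covered 0.802% and 2.02% of chromosome 13 and 1.22% and 1.72% of X.

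Gene lists place the sites among known gene groups. A FOSL2 region lay within 50 kb of 7763 of 19974 protein-coding genes (38.9%), one in H3K9me3 within 50 kb of 203 (1.02%) and one in H3K27me3 within 50 kb of 205 (1.03%). Of 517 zinc finger genes, 318 had at least 25% of their length in H3K9me3, against 634 of all 19974 genes. Of the 517, 88 (17.02%) had any FOSL2 region within 50 kb and 19 (3.68%) had one in H3K9me3. ZNF169 contained one (chr9:94278537-94279284, fold enrichments 35.9 and 10.9, 15.4% of the region covered), and ZNF79 one wholly in the mark (chr9:127443546-127444157, 16.4 and 5.25). ZNF726 lay 12.8 kb from one that was 84.6% covered (9.87 and 4.60). H3K27me3 touched FOSL2 regions near 2 zinc finger genes. These were 4 regions within 50 kb of ZNF536, a gene that was 71.7% covered by that mark, and 1 near ZNF780A. Zinc finger genes thus stood at 17.02% for any FOSL2 region and 3.68% for one in H3K9me3, where all genes stood at 38.9% and 1.02%. Neighbouring genes can share a region, so the 19 are not separate cases. ZNF251, ZNF34 and ZNF517 counted the same region (42.4 and 11.8), of which H3K9me3 covered only 1.94%.

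Developmental regulators are the usual targets of Polycomb. Of 76, 23 (30.3%) had any FOSL2 region within 50 kb, against 38.9% of all genes. H3K27me3 covered 24 of the 76 over at least 25% of their length, against 1762 of all 19974 genes. A FOSL2 region in H3K27me3 lay within 50 kb of 2 (2.63%, against 1.03% of all genes). Within 10 kb it was 0 (against 0.406%) and within 100 kb 5 (6.58%, against 1.81%). The 2 within 50 kb were PAX2 (chr10:100847485-100847908, 17.5 kb away, fold enrichments 11.1 and 5.20) and IRX3 (chr16:54265558-54265885, 17.4 kb away, 4.74 and 3.45). NKX2-2 had 1 in H3K9me3 (chr20:21463770-21464198, 3.12 and 3.02). Of 392 olfactory receptor genes, 39 (9.95%) had any region, against 38.9% of all genes. Of the 392, OR6J1 had one in H3K9me3 (0.255%, against 1.02%) and 3 genes had one in H3K27me3 (0.765%, against 1.03%). The last was a single region beside OR4M1, OR4N2 and OR4Q3 (4.53 and 6.31). Of 53 clustered protocadherin genes, 38 (71.7%) had a FOSL2 region within 50 kb, against 38.9% of all genes. At least 25% of the length lay in H3K9me3 in 29 of the 53, against 634 of all 19974 genes. None had a FOSL2 region in a mark, where the shares of all genes (1.02% and 1.03%) would give less than 1 gene. The protocadherin genes are neighbours and share regions, so they are not separate cases.

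FOSL2 regions lay near many AP-1 genes. Of 14 FOS, JUN and ATF family genes, 10 (71.4%) had a FOSL2 region within 50 kb, and of 30 genes linked to AP-1, 22 (73.3%) did, against the 38.9% of all genes. None of the 14 family genes had one in a mark, where shares of 1.02% and 1.03%, as over all genes, would give less than 1 gene. FOSL2 itself had 2 regions within 50 kb, the stronger 11.1 kb from H3K9me3 and 60.2 kb from H3K27me3. JUN had 1, 70.5 kb from H3K9me3 and 320 kb from H3K27me3. FOS had none within 50 kb and was 54.1% covered by H3K27me3, and FOXA1 had none and lay in neither mark. Of 24 lung epithelial genes, 13 (54.2%) had a FOSL2 region within 50 kb, against 38.9% of all genes. Within 10 kb it was 4 (16.7%), against 20.4% of all genes, so the order depended on the window. None of the 24 had one in a mark within 50 kb, where less than 1 gene would be so at the shares of all genes. The epithelial markers CDH1, EPCAM, KRT8, KRT18, GRHL2 and ELF3 each had 1 to 6 regions, all unmarked, and at most 3.05% of their length in H3K9me3 and 0.318% in H3K27me3.

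Markers of cells other than epithelium, and housekeeping genes, had no FOSL2 region in a mark within 50 kb. Any FOSL2 region lay within 50 kb of 2 of 17 blood genes (11.8%) and 8 of 18 neuron and muscle genes (44.4%). For fibroblast and endothelial genes it was 7 of 16 (43.75%), and for housekeeping genes 5 of 16 (31.25%). The share of all genes was 38.9%. The neuron and muscle genes had a median of 21.6% of their length in H3K27me3, the blood genes 9.30%, and the housekeeping genes 0%. These lists are small, and a count of 0 in lists of 14 to 53 genes could not be told from the 1.02% and 1.03% of all genes.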

How the data were processed

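ChIP-seq peak lists of A549 cells were analysed: 2 of FOSL2 without and 2 with doxycycline, 2 each of FOXA1 in uninduced A-Fos and WT cells, and 2 each of H3K9me3 and H3K27me3 in WT cells. Per the labels, libraries were paired reads of 50 bp. For every peak the deposited lists, 1 per library, state a fold enrichment, which is a ratio, with p-values and q-values as −log10. The smallest deposited −log10 q was 1.302. The submitters' processing notes name MACS2, BWA 2.2.1 and SAMtools 1.8 among the tools, and the build hg38, without settings. The authors' fold enrichments served for ranks within 1 list and are otherwise quoted as deposited. They were not rescaled between lists.

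Regions, overlap (1 bp), rank and distance were computed as stated with each result. Each chromosome's regions were moved together by a random offset, 1000 times (seed 7), in Python 3 with NumPy, and the scripts were tested on simulated data. Whole chromosomes were used, gaps included. Genes and promoter windows were RefSeq's (GRCh38.p14). Named regions were the strongest with both summits in a mark, or between marked stretches, each nearest gene once, and up to 6 members per gene list. Members and lists were chosen with earlier results of these data known. Alternatives were 1 library left out, other mark definitions, other shifts and other overlaps. The inputs and the doxycycline FOXA1 lists were not used here. The count of AP-1-linked genes with a FOSL2 region in a mark is not reported here.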

Additional observations from a re-analysis of the deposited data

How the results depend on the processing

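Of 145 alternative values, 114 kept the direction and the side of the 0.05 threshold. With 1 library left out, the ratio to the shifted level ran from 0.257 to 1.23 for the overlap with H3K9me3, from 0.215 to 1.04 for H3K27me3 and from 0.178 to 1.61 for both marks, the highest values being those of FOSL2 replicate 2 alone. The ratio of the median distance then ran from 0.734 to 1.04 for H3K9me3 and from 0.797 to 0.928 for H3K27me3, and that of the cover at 5 kb from 0.910 to 1.27 and from 0.578 to 0.943. With the replicate block (FOSL2 list n against mark list n), the overlap ratios were 0.808 and 0.832, the ratio for both marks was 1.04 (permutation p = 0.478), the H3K27me3 distance ratio 0.805, and the cover at 5 kb 1.11 for H3K9me3 and 0.945 for H3K27me3 (p = 0.0659). The labels do not say that the numbers pair the libraries.

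The H3K27me3 distance ratio was 0.831 with either list of a mark and 0.832 with marks joined across gaps, both past the threshold, 1.13 with shifts over parts with peaks and 1.41 with shifts of 50 kb to 1 Mb. The H3K9me3 cover at 5 kb, not past the threshold as reported, was 0.979 with either list, 0.960 over parts with peaks and 0.966 without the weakest 10%. With 1 library left out it passed the threshold for H3K9me3 replicate 1 alone (0.910), H3K9me3 replicate 2 alone (1.08) and FOSL2 replicate 2 alone (1.27). In the upper 50% of each list the H3K9me3 rank differences were -0.0066 and -0.527. Genes with a FOSL2 region in a mark numbered 91 and 81 within 10 kb and 362 for each mark within 100 kb. With equal numbers of peaks, FOSL2 minus FOXA1 was -0.419 and -0.766 points. The cause of these changes was not tested. The alternatives without the weakest 10%, without chromosome 19 and with equal numbers were chosen after seeing the data. Depth is unknown, so weak peaks in a short and a long list cannot be compared.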
